A study of Mus musculus with 24 samples.

Results

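Chromatin accessibility at 9 genes of sugar digestion and sugar uptake was followed in mouse small intestinal epithelium of 2 ages. The genes were Sis, Lct, Mgam, Treh, Slc5a1, Slc2a5, Slc2a2, Khk and G6pc. Their peaks were those that the deposited peak annotation assigned to one of the 9 genes at most 50000 bp from the annotated transcription start site (TSS). This gave 75 of the 150646 consensus peaks, for 9 of the 29293 genes named by a peak. The assay was ATAC-seq, where a transposase (Tn5) inserts sequencing adapters into DNA that is not packed into closed chromatin. The libraries came from C57BL/6JRj mice, from cells of the small intestine freed with EDTA and trypsin and sorted by flow cytometry as EpCam-positive and CD45-negative. EpCam is a surface protein of epithelial cells and CD45 one of leukocytes. There were 3 aged libraries (aged 1, 2 and 4) and 3 young libraries (young 1, 2 and 4), with no treatment or genetic change in either group. Ages of 20 to 22 months (aged) and 2 to 3 months (young) are given for the series in a text on its other assays, while the labels here say only aged and young. The labels do not say whether each library was a separate animal, so p-values measure the spread between these libraries, which may be technical.

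Starch, sucrose and milk sugar are cut to single sugars by enzymes anchored in the brush border of enterocytes, the absorptive cells of the villus. Sis codes for sucrase-isomaltase, Mgam for maltase-glucoamylase, Lct for lactase and Treh for trehalase. Glucose and galactose enter the cell with sodium through SGLT1 (Slc5a1), fructose enters through GLUT5 (Slc2a5), and both leave toward the blood through GLUT2 (Slc2a2). Ketohexokinase (Khk) starts fructose breakdown, and the catalytic subunit of glucose-6-phosphatase (G6pc) releases free glucose. These genes are most active in the upper small intestine, and fructose in the diet raises Slc2a5.

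The clearest age difference lay next to Slc2a5. A pair of adjacent peaks just past the 3′ end of this gene were lower in the aged libraries, by 0.51 and 0.91 on the log2 scale. They were the only 2 of the 69 tested peaks that passed the test. The annotation assigns them to Slc2a5, while the RefSeq start nearest to them is that of its neighbour Slc2a7. Peaks over the promoters of the sugar genes did not pass it in either direction. Lct and Treh each held 1 further peak that did not pass with age as the only term and did pass, as lower in aged, once the library number was added as a block.

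The 250 bases before the RefSeq start of 5 of the genes are shown to set the promoter with no peak (Slc2a5) beside the most open transporter promoter (Slc5a1), the AT-rich Sis promoter, the weakest one (Lct) and the one with the largest age difference in relation to its error (Treh). Sequences are from RefSeq on GRCm38.p6, and all 9 genes were found in its promoter table. Each runs 5′ to 3′ on the strand of the gene. Positions are chr3:72967864-72968113 (minus strand) for Sis, chr1:128328319-128328568 (minus strand) for Lct, chr9:44672983-44673232 (plus strand) for Treh, chr5:33103969-33104218 (plus strand) for Slc5a1 and chr4:150119094-150119343 (plus strand) for Slc2a5. Capitals mark matches, on either strand, to 6 motifs. The HNF1 core is GTTAAT and the CDX core is TTTATG. The GATA motif is AGATAA and the E-box is CACGTG. The TATA box is TATAAA and the HNF4-type motif is CAAAGTC.
Sis: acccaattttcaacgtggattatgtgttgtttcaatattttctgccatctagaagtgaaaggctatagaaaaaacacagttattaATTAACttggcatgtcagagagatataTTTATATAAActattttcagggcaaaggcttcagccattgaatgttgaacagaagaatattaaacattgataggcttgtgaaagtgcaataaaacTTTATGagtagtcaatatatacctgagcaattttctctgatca
Lct: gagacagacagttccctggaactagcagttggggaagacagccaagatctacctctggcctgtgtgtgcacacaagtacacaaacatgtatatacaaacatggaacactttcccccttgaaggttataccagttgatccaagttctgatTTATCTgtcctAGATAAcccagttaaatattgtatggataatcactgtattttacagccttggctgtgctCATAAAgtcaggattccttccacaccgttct
Treh: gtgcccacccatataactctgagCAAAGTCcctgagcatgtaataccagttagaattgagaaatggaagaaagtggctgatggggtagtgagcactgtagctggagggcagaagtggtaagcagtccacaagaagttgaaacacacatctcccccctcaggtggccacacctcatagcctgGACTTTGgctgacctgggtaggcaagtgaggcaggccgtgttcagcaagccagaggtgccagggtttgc
Slc5a1: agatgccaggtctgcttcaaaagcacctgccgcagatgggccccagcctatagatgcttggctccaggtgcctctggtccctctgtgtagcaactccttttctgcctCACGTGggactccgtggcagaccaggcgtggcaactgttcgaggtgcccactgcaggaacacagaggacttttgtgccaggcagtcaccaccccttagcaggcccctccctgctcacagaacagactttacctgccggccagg
Slc2a5: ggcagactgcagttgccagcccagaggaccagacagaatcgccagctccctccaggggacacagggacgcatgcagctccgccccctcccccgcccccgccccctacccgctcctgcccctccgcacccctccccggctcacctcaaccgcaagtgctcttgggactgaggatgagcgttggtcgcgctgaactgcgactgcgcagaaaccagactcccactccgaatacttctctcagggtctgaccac

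These stretches differ in base composition. GC content was 31.6% for Sis, 42.8% for Lct, 53.2% for Treh, 60.0% for Slc5a1 and 66.4% for Slc2a5, against a median of 52.4% over all 32851 RefSeq promoters of the same length. Slc2a5 held 15 CpG dinucleotides and Sis 1, against a median of 6. The Sis stretch held the HNF1 core 165 bases before the start and the CDX core 43 bases before it. It also held 2 overlapping TATA box matches, 1 on each strand, which begin 138 and 134 bases before the start. The Lct stretch held the CDX core 31 bases before the start and 2 GATA matches, and the Treh stretch held 2 HNF4-type matches. The Slc5a1 stretch held 1 E-box match, and none of the 6 motifs was found in the Slc2a5 stretch. Over the 9 genes, the HNF1 core, the E-box and the TATA box were each found in 3, the CDX core and GATA in 2 and the HNF4-type motif in 1. Among all 32851 promoters, 6.43% held the HNF1 core, 10.8% the CDX core, 9.99% GATA, 6.02% the E-box, 12.4% the TATA box and 3.84% the HNF4-type motif. A match is a run of letters and not a measured binding site.

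Depth limits what could be seen. Total counts in peaks lay between 16900796 and 23935291 in 5 libraries and at 6149680 in young 4, so young 4 was 3.89-fold shallower than the deepest library. The median count over the 75 peaks was 63 to 98 in the aged libraries, 85 and 75 in young 1 and 2, and 25 in young 4. Values below are CPM as edgeR computes them, that is, counts relative to the TMM-normalised library size, and fold changes are aged over young. Calls are those of edgeR's quasi-likelihood test over all peaks, with p-values adjusted by Benjamini and Hochberg's method and a threshold of 0.05. The median CPM of the 75 peaks was 3.85, against 2.06 over all peaks, and 50 of the 75 lay above that overall median. Their median width was 291 bp (range 74 to 1113 bp), against 223 bp over all peaks. Intron peaks made up 56.0% of them (42 peaks) and intergenic peaks 21.3% (16 peaks), against 42.1% and 34.9% of all peaks.

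Of the 75 peaks, 69 passed the filter on low counts. The other 6 (2 of Sis, 2 of Mgam, 1 of Lct and 1 of Slc2a2) had mean values of 0.223 to 0.427 CPM and no test. Among the 69, 2 were called lower in aged libraries and 0 higher, against 0.528% called lower and 1.07% called higher over all 129588 tested peaks. An unadjusted p below 0.05 was seen for 6 of the 69 (8.82% of all tested peaks), all lower in aged. With the library number as a block, 4 were called lower and 0 higher, against 1.1% of all tested peaks called lower in that fit. Log2 fold changes ran from -1.57 to 0.71 with a median of -0.07, against a median of -0.004 over all tested peaks. They were below 0 for 44 of the 69 (63.8%), against 50.7% of all tested peaks. In 8 peaks (11.6%) every aged library lay below every young one, and in 2 (2.9%) every one lay above. Over all tested peaks these shares were 6.54% and 7.32%. All 75 peaks together held 0.0621% ± 0.00193 of the counts in aged and 0.0646% ± 0.0028 in young libraries (SD, n = 3 each).

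**Figure D1:**
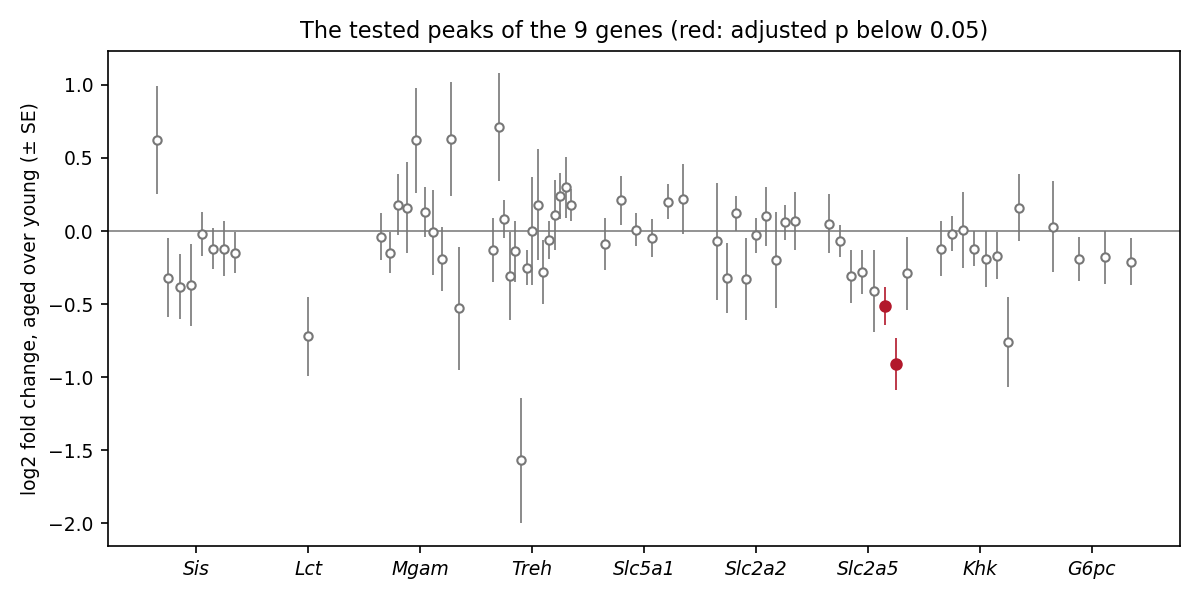
Log2 fold change (aged over young, y axis) with its standard error for the 69 tested peaks, grouped by gene and ordered by chromosome position within a gene; filled red points have an adjusted p below 0.05. The 2 red points are the Slc2a5 peaks at -0.51 and -0.91, and the lowest point is the Treh peak at -1.57, whose error bar is wide.

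Slc2a5 lies at chr4:150119344-150144168 on the plus strand and had 8 peaks, 7 of them with a log2 fold change below 0. The peak at chr4:150144190-150144686 starts 22 bp past the RefSeq gene end and is annotated as a transcription termination site peak. It lies 4885 bp from the annotated TSS, which is internal to the gene, and its centre is 25094 bp after the RefSeq start. It measured 15.0, 12.7 and 11.0 CPM in aged 1, 2 and 4 and 19.3, 18.6 and 16.7 CPM in young 1, 2 and 4. Every aged library lay below every young one. The log2 fold change was -0.51 (SE 0.13, edgeR adjusted p = 0.0363). The intergenic peak at chr4:150147130-150147526 lies 2443 bp further on and 2962 bp past the gene end. It ends 1308 bp before the RefSeq start of Slc2a7, a related sugar transporter. Its centre lies 27984 bp after the RefSeq start of Slc2a5. By RefSeq starts both called peaks are thus nearer to Slc2a7, which starts at chr4:150148834, while the annotation assigns them to Slc2a5. The intergenic peak measured 4.62, 4.55 and 3.41 CPM in the aged libraries and 8.60, 7.68 and 7.01 CPM in the young ones. Here too the ages did not overlap, and the young mean was 1.85-fold the aged mean. The log2 fold change was -0.91 (SE 0.18, edgeR adjusted p = 0.00201).

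The intergenic peak past Slc2a5 was called in every alternative run, and leaving out any 1 library kept its edgeR adjusted p between 0.000781 and 0.0231. Without the shallow young 4 its log2 fold change was -0.95. The peak at the gene end was not called with DESeq2 (adjusted p = 0.0949), nor in edgeR without aged 2 (adjusted p = 0.131), aged 4 (0.269), young 1 (0.135) or young 2 (0.213). Its log2 fold change in those fits ran from -0.41 to -0.51.

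The other 6 Slc2a5 peaks lie inside the gene or next to the Slc2a7 start. The strongest, an intron peak at chr4:150132692-150133201, had 33.5 ± 1.12 CPM in aged and 35.2 ± 2.03 CPM in young libraries (SD, n = 3 each; log2 fold change -0.07, SE 0.11). Together these 6 peaks measured 56.5 ± 0.743 CPM in aged and 62.1 ± 2.48 CPM in young libraries (SD, n = 3 each), with no overlap between the ages. The called pair held 25.7%, 23.6% and 20.1% of the Slc2a5 peak counts in the aged libraries and 30.1%, 30.4% and 27.9% in the young ones, each in the order 1, 2 and 4. The pair was picked by its calls, so this share is a description and has no test.

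Summed over the 8 peaks, Slc2a5 measured 76.4, 72.9 and 71.4 CPM in aged and 92.7, 86.3 and 85.0 CPM in young libraries. The highest aged library lay below the lowest young one. The log2 fold change was -0.26 (SE 0.07, edgeR adjusted p = 0.0527), just above the threshold. It passed with the library number as a block (adjusted p = 0.00184), and in that fit 1 of the 9 gene sums was called lower, against 1.89% of all genes. It did not pass in edgeR when any 1 library was left out (adjusted p between 0.0571 and 0.254).

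The RefSeq promoter of Slc2a5 overlapped no peak. The annotation assigns the nearest peaks around that start to the predicted gene Gm13093, and the TSS it uses for Slc2a5 is an internal one. The peak 317 bp from that internal TSS had 1.62 ± 0.343 CPM in aged and 2.20 ± 0.539 CPM in young libraries (SD, n = 3 each; log2 fold change -0.41, SE 0.28). The Gm13093 peak at chr4:150120158-150121097, inside the Slc2a5 gene near its start, had 25.5 ± 1.89 and 25.8 ± 0.988 CPM in aged and young libraries. Over the 14 peaks within 10000 bp of the Slc2a5 gene span, whatever gene they were assigned to, the log2 fold change was -0.08 (SE 0.05, edgeR adjusted p = 0.729; 0.292 with the block). Slc2a7 peaks past the called pair had log2 fold changes of -0.04 and -0.13 for the 2 nearest, neither called.

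**Figure D2:**
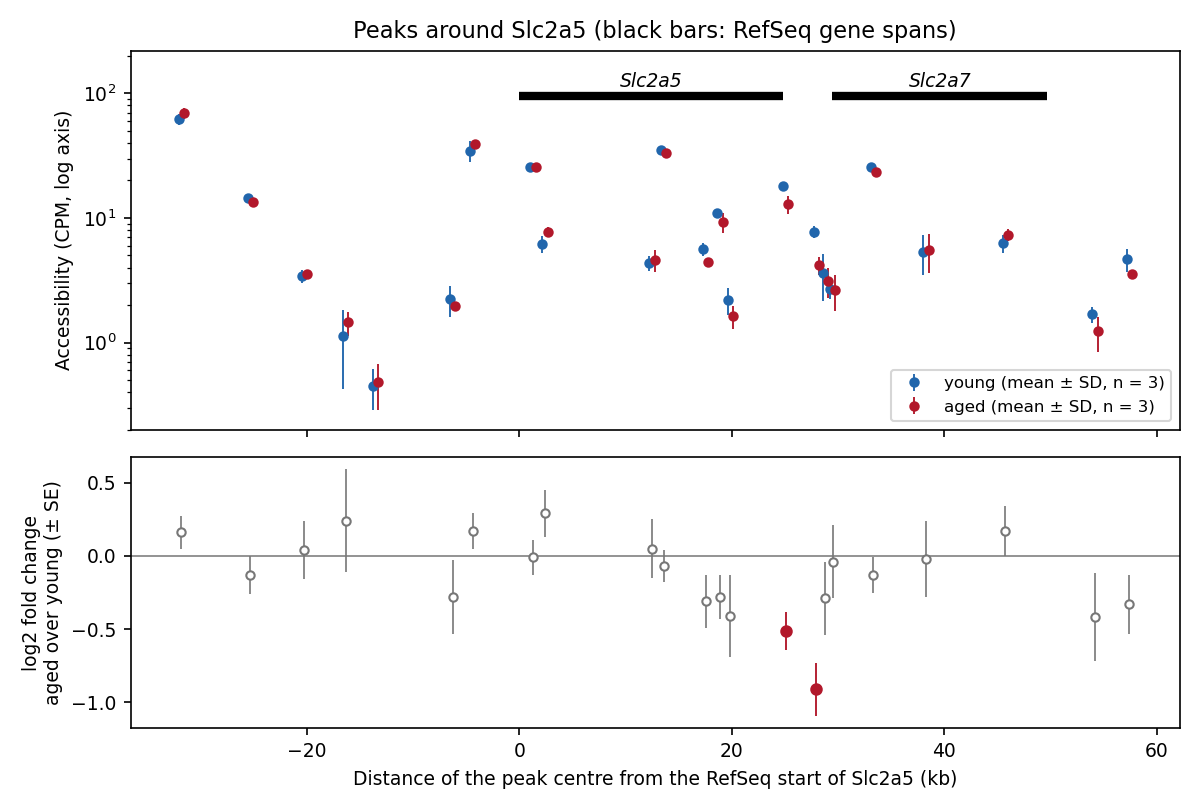
Mean CPM with SD (n = 3 libraries per age, log axis) of each peak around Slc2a5, above the log2 fold change with its SE, against the distance of the peak centre from the RefSeq start of Slc2a5 in kb. The 2 filled red points just past the gene end are the called peaks. Open points did not pass the test, and several of them, above and below 0, lie farther from 0 than their SE.

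Among the hydrolases, Sis (sucrase-isomaltase) had 10 peaks. Summed, they measured 50.6, 53.6 and 44.8 CPM in aged and 50.4, 52.7 and 61.5 CPM in young libraries, and the ages overlapped (log2 fold change -0.12, SE 0.09, edgeR adjusted p = 0.865). The strongest Sis peak lies 29872 bp upstream of the RefSeq start, at chr3:72997401-72998068, with 15.2 ± 2.66 CPM in aged and 17.1 ± 1.24 CPM in young libraries (SD, n = 3 each). The peak over the Sis promoter, at chr3:72967772-72968067, had 10.9 ± 1.71 and 11.4 ± 1.98 CPM (log2 fold change -0.02, SE 0.15). Inside the gene, the 2 peaks at chr3:72965929-72966184 and chr3:72964122-72964388 had log2 fold changes of -0.38 (SE 0.22) and -0.32 (SE 0.27), with every aged library below every young one but edgeR adjusted p-values of 0.723 and 0.873. The exon peak at chr3:72928567-72928854 went the other way, at 0.62 (SE 0.37), and was not called.

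Lct (lactase) had the fewest peaks of the 9 genes, 2. Its only tested peak, in an intron at chr1:128314492-128314967, lies 13588 bp into the gene. It measured 1.54, 1.34 and 2.61 CPM in aged and 3.66, 2.23 and 3.03 CPM in young libraries, and aged 4 lay above young 2. The log2 fold change was -0.72 (SE 0.27, edgeR adjusted p = 0.299), and with the library number as a block it was -0.77 (adjusted p = 0.0410). Each aged library lay below the young library of its number. The peak rests on 19 to 80 counts a library.

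The peak annotation assigns the Lct promoter peak and several peaks near it to the neighbouring gene Mcm6, part of the DNA replication helicase. Over the 6 peaks within 10000 bp of the Lct gene span, accessibility was 12.4, 6.52 and 12.3 CPM in aged 1, 2 and 4 and 20.9, 10.9 and 14.7 CPM in young 1, 2 and 4. The young libraries of each number lay above the aged ones, while the ages overlapped. The log2 fold change was -0.59 (SE 0.24, edgeR adjusted p = 0.399). With the block it was -0.61 (SE 0.12, adjusted p = 0.000858), and Lct was then the only 1 of the 9 gene spans called lower, against 2.47% of all spans. None of the 9 spans was called without the block (1.77% of all spans were). With age only and any 1 library left out, the Lct span ran from -0.80 to -0.30 (edgeR adjusted p between 0.119 and 0.752). DESeq2 gave it an adjusted p of 0.921. Within these 6 peaks, the one at chr1:128337694-128338229, in a Mcm6 intron 9644 bp upstream of the Lct start, was called. This peak is assigned to Mcm6, is not among the 75, and was singled out after its values were seen. It measured 4.07, 2.67 and 4.37 CPM in aged and 8.60, 4.80 and 6.05 CPM in young libraries (log2 fold change -0.85, SE 0.22, edgeR adjusted p = 0.0334). It was not called in edgeR without aged 1 (adjusted p = 0.0535), aged 2 (0.193) or young 1 (0.456), nor with DESeq2 (0.124).

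Mgam (maltase-glucoamylase) had 12 peaks, all inside its introns. Their sum was 46.9, 41.2 and 48.6 CPM in aged and 49.2, 39.9 and 50.8 CPM in young libraries (log2 fold change -0.02, SE 0.10, edgeR adjusted p = 0.992). The strongest, at chr6:40645476-40646121, had 16.6 ± 2.17 CPM in aged and 18.4 ± 2.85 CPM in young libraries (SD, n = 3 each). The largest differences among Mgam peaks were in weak ones and were not called. They were 0.63 (SE 0.39) at chr6:40712708-40713017, 0.62 (SE 0.36) at chr6:40660351-40660569 and -0.53 (SE 0.42) at chr6:40715817-40716020, all on the log2 scale.

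Treh (trehalase) had 15 peaks, the most of the 9 genes, and their sum was 125 ± 9.09 CPM in aged and 122 ± 3.28 CPM in young libraries (SD, n = 3 each; log2 fold change 0.03, SE 0.06). The strongest, at chr9:44691548-44692570, lies past the RefSeq end of Treh in an intron of another gene. It had 42.3 ± 2.36 CPM in aged and 37.2 ± 1.55 CPM in young libraries, with every aged library above every young one (log2 fold change 0.18, SE 0.11, edgeR adjusted p = 0.736). The promoter peak at chr9:44672963-44673412, over the whole sequence shown above, measured 20.2, 18.3 and 17.1 CPM in aged and 23.9, 20.2 and 21.8 CPM in young libraries. The ages did not overlap, but aged 1 and young 2 both round to 20.2 CPM. Its log2 fold change was -0.25 (SE 0.12, edgeR adjusted p = 0.558).

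A weak Treh peak upstream of this promoter had the largest fold change of the 69. It lies at chr9:44672306-44672394, with its centre 883 bp before the RefSeq start, and measured 0.678, 0.292 and 0.227 CPM in aged and 0.915, 1.29 and 1.43 CPM in young libraries. The ages did not overlap. The log2 fold change was -1.57 (SE 0.43, edgeR adjusted p = 0.0591), and it was called with the library number as a block (adjusted p = 0.0134), without a filter on low counts (0.0447) and without aged 1 (0.0192). Without young 4 it was -1.50 (adjusted p = 0.116).

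**Figure D3:**
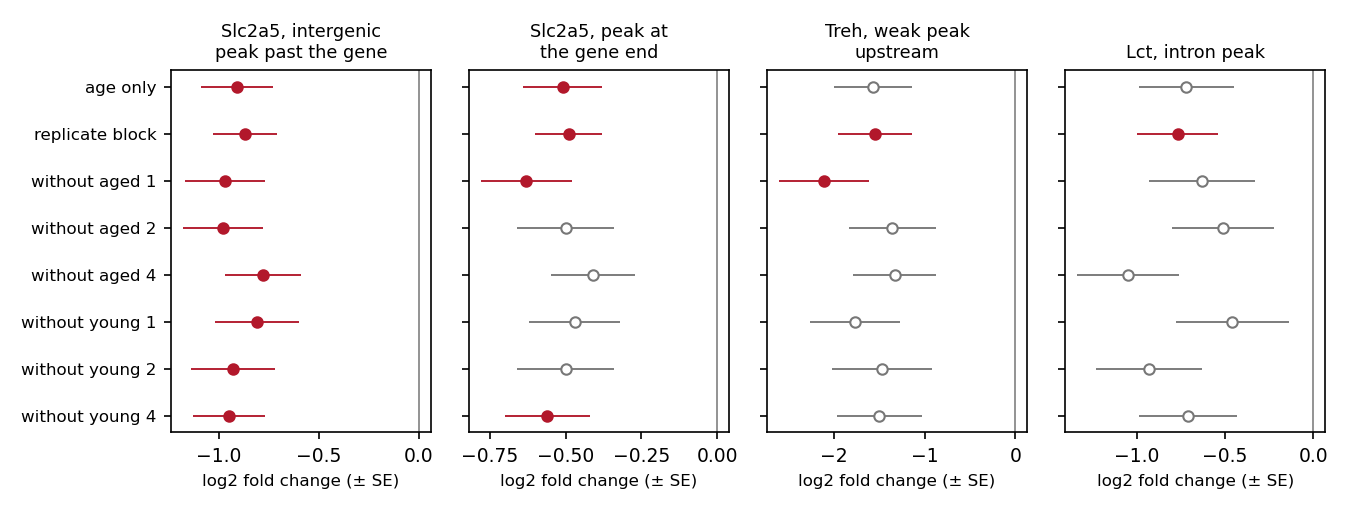
Log2 fold change (aged over young, x axis, with SE) of 4 peaks with age as the only term, with the library number as a block, and without each library in turn (y axis); filled red points have an edgeR adjusted p below 0.05. All points lie below 0, and the intergenic Slc2a5 peak is red in every fit, the gene-end and Treh peaks change with the libraries used, and the Lct peak is red only with the block.

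Among the transporters, Slc5a1 (SGLT1) had 6 peaks that summed to 112, 96.1 and 108 CPM in aged and 111, 93.1 and 96.5 CPM in young libraries, with overlap (log2 fold change 0.07, SE 0.07, edgeR adjusted p = 0.907). Its promoter peak, at chr5:33103997-33104621, had 39.9 ± 2.37 CPM in aged and 39.4 ± 3.73 CPM in young libraries (SD, n = 3 each). The intron peak at chr5:33107807-33108507 had 31.6 ± 3.79 and 27.3 ± 1.78 CPM (log2 fold change 0.20, SE 0.12, edgeR adjusted p = 0.714). Slc2a2 (GLUT2) had 10 peaks that summed to 103 ± 4.60 CPM in aged and 102 ± 9.48 CPM in young libraries (log2 fold change 0.03, SE 0.07). Its 3 strongest peaks lie 1811 bp before the RefSeq start and 7978 bp and 24083 bp after it, with log2 fold changes of 0.12, -0.03 and 0.06 (SE 0.12 each). The peak over its RefSeq promoter was weak, with 1.62 ± 0.304 CPM in aged and 2.11 ± 0.590 CPM in young libraries.

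For the enzymes inside the cell, Khk (ketohexokinase) had 8 peaks that summed to 85.7 ± 10.0 CPM in aged and 90.8 ± 8.01 CPM in young libraries (SD, n = 3 each; log2 fold change -0.08, SE 0.08). Its strongest peak, in an intron at chr5:30925204-30925651, had 34.0 ± 5.51 and 36.9 ± 2.96 CPM. A weak peak at chr5:30930249-30930352 measured 1.23, 1.25 and 0.625 CPM in aged and 1.51, 2.08 and 1.75 CPM in young libraries, without overlap (log2 fold change -0.76, SE 0.31, edgeR adjusted p = 0.387). G6pc (glucose-6-phosphatase) had 4 peaks that summed to 45.2, 35.1 and 34.2 CPM in aged and 54.6, 38.4 and 32.0 CPM in young libraries. The spread between libraries of one age was wider than the difference between ages (log2 fold change -0.16, SE 0.13, edgeR adjusted p = 0.883), and in both ages library 1 was the highest.

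**Figure D4:**
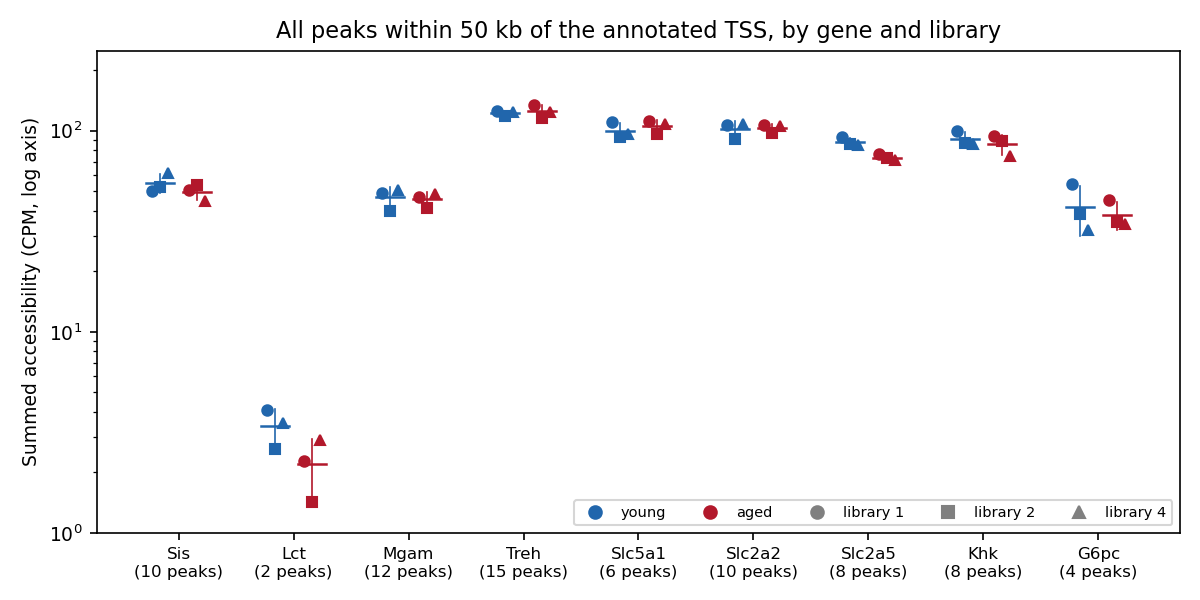
Summed CPM (log axis) of all peaks of each gene within 50000 bp of the annotated TSS, by library; horizontal lines are means and vertical lines SD (n = 3 per age). Slc2a5 is the only gene whose aged libraries (71.4 to 76.4 CPM) all lie below the young ones (85.0 to 92.7 CPM). The share of all gene sums without overlap was not counted. Over all single peaks tested, 6.54% had every aged library lower.

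Of the 9 gene sums, 0 were called with age as the only term (edgeR, 1.84% of all 27199 genes were), and 2 of the 9, Slc2a5 and Lct, had an unadjusted p below 0.05 (8.92% of all genes). DESeq2 called 1, Slc2a5. At promoters, 5 of the 9 genes had a peak within 1000 bp of the annotated TSS, and 0 of these were called or had an unadjusted p below 0.05 in edgeR (1.74% and 8.92% of 13869 promoters). DESeq2 called 0 of them. The annotated TSS lay more than 10000 bp from the RefSeq start for Sis, Mgam, Treh, Lct, Slc2a5 and Slc2a2 and less than 1000 bp from it for Khk, G6pc and Slc5a1. The peak over the Mgam promoter is assigned to Tas2r138, a taste receptor gene. Peaks that overlap the RefSeq promoter (250 bases before to 50 after the start) were therefore also counted, whatever gene they were assigned to. By this measure 8 of the 9 genes had a peak over the promoter and 0 were called (edgeR, 1.43% of 13135 promoters were). Some of these peaks were weak, and the one over the Lct promoter held 9 to 16 counts a library. Treh, at -0.23 on the log2 scale (SE 0.09, adjusted p = 0.462), was the 1 of 8 with an unadjusted p below 0.05 (8.44% of promoters).

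Per kb of peak, over all 6 libraries, the promoters ranked from Khk (66.1 ± 7.27 CPM per kb) and Slc5a1 (63.4 ± 4.49) through Mgam (46.0 ± 2.97), Treh (45.0 ± 5.44), Sis (37.6 ± 5.66) and G6pc (24.4 ± 5.52) to Slc2a2 (10.2 ± 2.73) and Lct (5.38 ± 2.77), each ± SD over n = 6 libraries. Neighbours in this order overlapped in their ranges except Slc5a1 above Mgam and G6pc above Slc2a2. Per kb, the Slc5a1 promoter, at 59.1 or more in each library, thus lay above all 4 hydrolase promoters, whose highest library was at 53.2 (Treh).

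**Figure D5:**
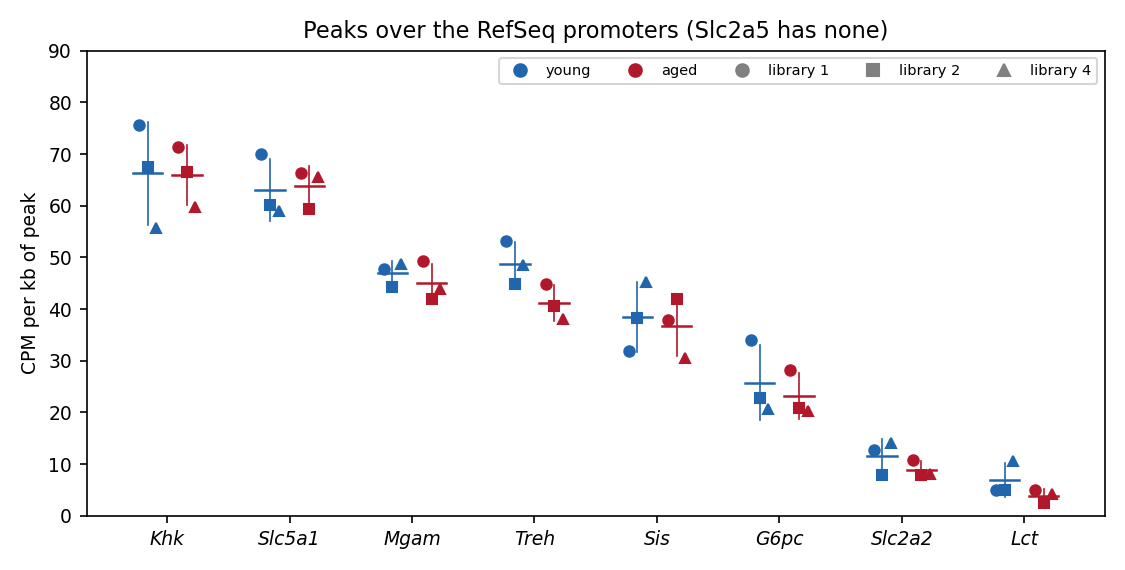
CPM per kb of the peak or peaks over the RefSeq promoter (y axis, from 0) for the 8 genes that have one, by library; horizontal lines are means and vertical lines SD (n = 3 per age). Young and aged libraries overlap in every gene except Treh, and Slc2a2 and Lct lie lowest. The share of all promoters without overlap was not counted.

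The wider pathway was taken from 7 lists: brush border hydrolases, sugar transporters, fructose breakdown, glucose output, glycolysis entry, galactose breakdown and regulators of sugar genes. These hold 78 entries including the 9 genes, and 73 genes were named by a peak. At annotated promoters 48 were tested and edgeR called 0, against 1.74% of all promoters. An unadjusted p below 0.05 was seen for 2 (8.92% of all promoters), and 0 were called with the block or with DESeq2. Log2 fold changes were below 0 for 24 of the 48. The gene with the smallest promoter p in 6 of the 7 lists was Malrd1 (0.02), Slc5a4a (0.28), Tkfc (triokinase, which follows Khk in fructose breakdown, -0.19), Fbp2 (a fructose-bisphosphatase, 0.11), Galk1 (galactokinase, -0.08) and Mlx (partner of the sugar sensor ChREBP, -0.21), all log2 fold changes that did not pass the test. Malrd1 was the only promoter tested in the list of brush border hydrolases. It codes for a protein with MAM and LDL receptor domains and is not itself known as a hydrolase, so no hydrolase promoter of that list was tested at an annotated TSS. At RefSeq promoters 53 entries of the 7 lists were tested, and edgeR called 0 with age only or with the block. An unadjusted p below 0.05 was seen for 8 of the 53 (8.44% of all RefSeq promoters), in both directions. Among these were Pgm1 (log2 fold change 0.20) and Mlxipl (-0.22).

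Over windows of 50000 bp, 72 genes of these lists were tested, and edgeR called 1 higher and 0 lower (1.06% of all genes were called higher). The gene called was Hk1, the widely expressed hexokinase that traps glucose in the cell, with 18.5, 16.8 and 20.8 CPM in aged and 12.9, 10.9 and 13.7 CPM in young libraries. The ages did not overlap, with a difference of 0.61 on the log2 scale (SE 0.13, edgeR adjusted p = 0.0138). Hk1 was not called without aged 4 (0.51, adjusted p = 0.111) or young 2 (0.52, adjusted p = 0.167). Over peaks within 10000 bp of its annotated TSS it was called, with a log2 fold change of 3.04 (SE 0.55, edgeR adjusted p = 0.000993). The level of those peaks is not given here. They are a part of the window above and can hold no more than its CPM, so this fold change may rest on few counts. The peaks over the RefSeq promoter of Hk1 had 36.5 ± 1.85 CPM in aged and 33.6 ± 2.06 CPM in young libraries (SD, n = 3 each). This is more than the whole 50000 bp window held, so these peaks are not all part of that window. They overlapped between the ages and were not called (log2 fold change 0.13, SE 0.07, edgeR adjusted p = 0.688). With the block 3 genes were called (4.65% of all genes): Hk1, Slc2a5 and Slc2a12, a further GLUT-family transporter, at -0.74 (adjusted p = 0.0263; 0.288 with age only).

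Marker genes were checked beside these values. The 11 tested promoters of enterocyte markers summed to 142 ± 14.1 CPM in aged and 138 ± 9.67 CPM in young libraries (SD, n = 3 each), and 8 promoters of epithelial markers to 350 ± 16.4 and 366 ± 28.0 CPM. For 14 promoters of stem and secretory cell markers the sums were 133 ± 2.55 and 126 ± 11.8 CPM, with 6 log2 fold changes below 0. Of these 14, 0 were called and 3 had an unadjusted p below 0.05 (8.92% of all promoters). They were Olfm4 (0.27), Trpm5 (0.34) and Chgb (-0.38). Windows of 8 markers of the proximal small intestine, where fructose uptake is highest, summed to 809 ± 74.8 and 830 ± 26.3 CPM. Of these 8, 4 had a log2 fold change below 0, with a median of 0.01 over the list, and Onecut3 (0.18) and Fabp1 (0.13) were the highest. Onecut2 (-0.21, adjusted p = 0.00385) and Cybrd1 (-0.22, adjusted p = 0.0431) were called lower with the block but not with age only (0.120 and 0.298). Over all genes the block called 4.65% of windows, either way. Among the marker windows it called 2 of 8 proximal, 2 of 8 leukocyte, 1 of 13 stromal and 1 of 10 epithelial ones. It called 0 of 13 enterocyte, 0 of 7 distal and 0 of 15 stem and secretory windows. Of 16 leukocyte markers, 7, with Ptprc (which codes for CD45) among them, were named by no peak. The 8 tested leukocyte windows summed to 45.5 ± 3.87 CPM in aged and 41.0 ± 2.17 CPM in young libraries, with 1 of 8 log2 fold changes below 0. Cd8a (1.49, adjusted p = 0.0161) and Itgae (0.54, adjusted p = 0.00850), both of T cells within the epithelium, were higher with the block but not called with age only (0.0567 and 0.0802). Windows of 13 stromal markers summed to 248 ± 0.588 and 247 ± 6.27 CPM, with 5 of 13 log2 fold changes below 0. Cdh5, of endothelial cells, was called lower with the block (-0.43, adjusted p = 0.0353; 0.670 with age only). The block also called the window of Krt18, an epithelial keratin, higher (0.13, adjusted p = 0.0422; 0.411 with age only). It called the RefSeq promoter of Cubn, an enterocyte receptor of the distal gut, lower (-1.23, adjusted p = 0.0315, and 0.152 with age only). Cubn was the only 1 of 12 RefSeq promoters of enterocyte markers called with the block. The share of all RefSeq promoters called in that fit is not given here. The Cubn promoter was weak, with 0.601 ± 0.0905 CPM in aged and 1.4 ± 0.106 CPM in young libraries. The Cubn window was not called with the block (-0.17, adjusted p = 0.148). RefSeq promoters of the distal markers Slc10a2 (0.26) and Amn (0.23) were higher in that fit, without a call. With age only, log2 fold changes were below 0 for 5 of 12 RefSeq promoters of enterocyte markers and 5 of 7 windows of distal markers. For windows of enterocyte markers they were below 0 in 8 of 13, with a median of -0.05 against -0.003 over all genes. These 13 windows summed to 761 ± 47.6 CPM in aged and 771 ± 25.5 CPM in young libraries. The part of any of these in the Slc2a5 and Lct values was not tested. In sorted bulk cells, fewer cells of a type and less open chromatin per cell cannot be told apart.

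The distance limit of 50000 bp left out 13 peaks of the 9 genes. The farthest peaks inside it were a Slc2a2 peak at 45860 bp (0.771 CPM in aged, 0.906 CPM in young libraries) and the Sis peak at 46025 bp (15.2 and 17.1 CPM). The nearest outside were a Sis peak at 62303 bp (0.354 and 0.431 CPM) and a Slc2a2 peak at 62985 bp (0.728 and 0.791 CPM).

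The promoters most like each gene in pattern over the 6 libraries were found by the root mean square difference of centred log2 CPM among 13869 promoters. They were Mrpl50 and Arl10 for Slc5a1 (0.0138 and 0.0146), Clca4b and Taf10 for Slc2a2 (0.00482 and 0.0140), Usp32 and Ndnl2 for Khk (0.0113 and 0.0177), Gm609 and Gm10032 for Slc2a5 (0.0665 and 0.0747), and Gm11934 and RP23-227D7.6 for G6pc (0.0325 and 0.0456). The median difference to all promoters was 0.145 for Slc5a1, 0.175 for Slc2a2, 0.149 for Khk, 0.379 for Slc2a5 and 0.246 for G6pc. The root mean square of each gene's own centred values was 0.051, 0.105, 0.078, 0.351 and 0.204 in the same order. The patterns of Slc5a1, Slc2a2 and Khk were thus nearly flat, and their likeness is to other flat promoters. Promoters here are those at the annotated TSS. For Slc2a2 and Slc2a5 these are peaks with centres 24083 bp and 19892 bp after the RefSeq start.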

How the data were processed

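ATAC-seq counts came from 6 libraries, each sequenced on 4 lanes that share 1 column. Values are raw counts per consensus peak as deposited by the authors, with no normalisation. The submitters' processing notes name BWA 0.7.17-r1188, MACS2 2.2.7.1, featureCounts 2.0.1 and the genome build GRCm38. Peak-calling settings, any Tn5 shift and whether reads or fragments were counted were not given in the sources used here. Coordinates count from 1.

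Counts were fitted in edgeR 4.0.16 (R 4.3.3) with filterByExpr, TMM scaling and the robust quasi-likelihood test, age as the only term, over all peaks, and again on counts summed per promoter, per 50000 bp window and per RefSeq gene span. SE are those implied by the F statistic. Likeness used log2 CPM with a pseudocount of 0.5. DESeq2 1.42.0 and limma 3.58.1 were alternatives. Scripts were tested on simulated data.

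The genes and lists were chosen with earlier results of these data known. RefSeq promoters and spans were added after the files were seen. Named peaks were the nearest to the TSS, the strongest and the smallest p of each gene, those called with or without the block, and the 5 largest fold changes each way; a few others were named after their values were seen. Same-numbered libraries of both ages occur in the labels. Their deviations from the age means correlated at 0.236, 0.182 and 0.123 for numbers 1, 2 and 4, against -0.194 to 0.0287 for unlike numbers. The same-number values were all above 0.1, so the numbers were taken to pair the libraries in the block fit. The main fit, with age as the only term, ignores this pairing. Deviations within an age cancel out, so these correlations are tied to each other and have no test. What the number stands for is not in the labels. For 1 of the 7 lists the gene with the smallest promoter p is not reported here.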

Additional observations from a re-analysis of the deposited data

How the results depend on the processing

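The count of 2 peaks called lower became 1 with DESeq2 and 4 with the replicate block, and ranged from 1 to 3 when each library was left out in turn; 1 remained without aged 2, aged 4, young 1 or young 2. Of the 9 gene sums, 0 were called lower with age only and 1 (Slc2a5) with total-count scaling, a CPM filter of at least 1 in 3 libraries, DESeq2, limma-voom, cyclic loess, the replicate block or peaks within 10000 bp. Counts of promoters called, and counts called higher, were 0 in every alternative run, and no named value changed sign with a call. The block changed no other call among the 9 genes than those given. With 3 libraries per age and 6149680 counts in young 4, standard errors of the tested peaks ran from 0.11 to 0.43 on the log2 scale (median 0.20), and a change had to be several times its SE to be called: the Treh change of -1.57 with an SE of 0.43 was not.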
